A study of Mus musculus with 8 samples.

Results

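All 4 libraries labelled ML-792 were compared with all 4 libraries labelled control, which is every one of the 8 libraries of the series, across 19173 tested genes of 36920 in the table. The cells were R1, a mouse embryonic stem (ES) cell line grown in serum with LIF, the cytokine that keeps ES cells undifferentiated. Members were assigned by their treatment label and not by any measured value. The control side held the D1 libraries (first round, before ML-792) and the D8 libraries (second round, before ML-792). The ML-792 side held the D3 and D10 libraries, each taken at the end of a 48 h exposure to ML-792 at a dose labelled 2.5 mM. Each day had 2 libraries. On the labelled schedule D8 comes after the first exposure, so the D8 controls are not known to be cells that never met ML-792, and no library at D3 or D10 was labelled untreated, so ML-792 and 48 h of further culture cannot be told apart. The title of D1 replicate 2 gives day 1 and its time tag day 0. No label says that replicates were separate cultures, so the spread behind every p-value is that of these libraries and may be technical. All libraries share the 1 cell line and the 1 medium.

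ML-792 blocks the SUMO E1 enzyme, a dimer of Sae1 and Uba2. E1 charges SUMO, a small protein that resembles ubiquitin, after which it is joined to lysines of target proteins. Many of those targets act in the nucleus as repressors or as parts of heterochromatin. In mouse ES cells, SUMO is known for its part in the silencing of retroviral elements and of Dux, whose product switches on genes of the 2-cell embryo.

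Reads in genes numbered 21040992 to 40835518 a library. Levels are in CPM, reads scaled to a common library size. On log2 CPM, the controls and the ML-792 libraries parted along the first principal component, with 61.1% of the variance. D8 replicate 2 stood apart in composition: Rn7sk took 3.41% of its reads and at most 2.76% in any other library. Pooled log2 fold change fell with gene GC content (Spearman rho -0.308 across 14693 coding genes, which are not independent replicates), in the first round (-0.205) and in the second (-0.371). The part of GC content in the calls was not tested directly, and a fit with GC and length offsets was run as 1 of the alternatives. Counts of 5 or fewer members of a list often changed by more than 1.5 times between fits. ES cell identity was checked against Pou5f1, Sox2 and Nanog, which ran from 758 to 1370 CPM, 298 to 400 CPM and 194 to 788 CPM over the 8 libraries.

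The question was which genes differed between ML-792 and control once the round was taken into account. Of the genes tested, 6169 (32.2%) were called at an adjusted p under 0.05 in edgeR's quasi-likelihood test with a round term. ML-792 libraries were higher for 3255 genes (17.0%) and lower for 2914 (15.2%). The share of each gene list below that rose or fell is to be read against this 17.0% and 15.2%. The rises were the larger changes. At 2-fold or more there were 2081 rises and 994 falls, at 8-fold or more 532 and 28, and at 32-fold or more 86 and 0. The median log2 fold change was 1.36 among the rises and -0.744 among the falls, against 0.01 over all genes tested. In 3085 genes (16.1%) every ML-792 library lay above every control library, and in 2849 (14.9%) every one lay below. Of the calls, 5040 (81.7%) showed such a separation.

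**Figure D1:**
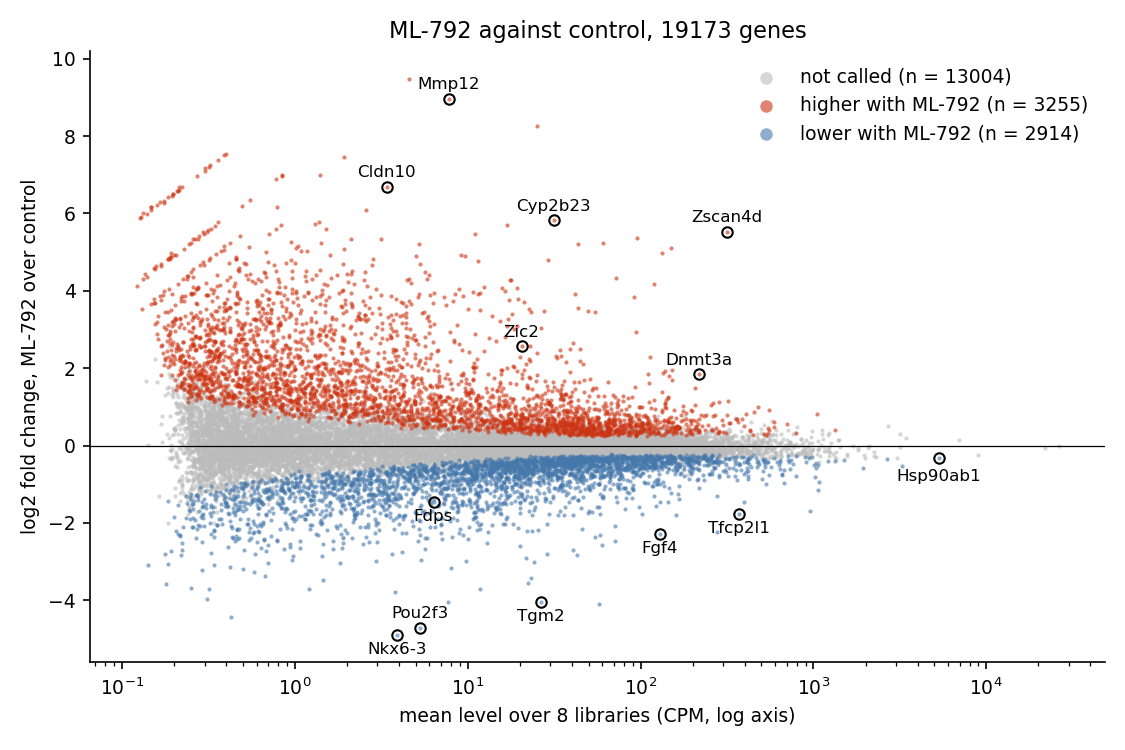
Log2 fold change of ML-792 over control for 19173 genes (y axis) against mean level in CPM over the 8 libraries (log x axis). Red points are the 3255 genes called higher and blue points the 2914 called lower, and circled genes are named in the text. The rises reach further from 0 than the falls, most of all at low levels.

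Mmp12, the macrophage metalloelastase that cleaves elastin (chromosome 9, 7344381 to 7369499 on mm10), had 3 reads over the 4 control libraries together. It had 7.24 and 30.1 CPM at D3 and 18.4 and 6.37 CPM at D10. The ratio of reads per library size was 564, with an exact 95% interval of 193 to 2740 for counting error, and the fitted log2 fold change was 8.96 ± 0.84 (SE, adjusted p = 8.2e-05). Every ML-792 library was above every control, which the rule that named this gene required, and the replicates of a day differed several-fold.

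Cldn10, a claudin of tight junctions that forms paracellular ion channels, ran from 0 to 0.0965 CPM in controls. It reached 2.19 and 4.77 CPM at D3 and 8.51 and 11.5 CPM at D10 (log2 fold change 6.69 ± 0.50, adjusted p = 3.2e-05). Cyp2b23, a cytochrome P450 of the drug-metabolising 2B family (chromosome 7, 26665227 to 26686437), measured 0.909, 1.37, 1.05 and 0.901 CPM in the controls. The ML-792 libraries gave 48.6 and 96.5 CPM at D3 and 62.5 and 38.9 CPM at D10, a change of 5.83 ± 0.29 (adjusted p = 5.3e-06). Akr1c21, an aldo-keto reductase that acts on steroids, went from 0.191 CPM or less to between 3.93 and 6.79 CPM (6.08 ± 0.37). These families have near-identical copies, so reads of single members are uncertain where the counting could split them.

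Pcdh8, a protocadherin of paraxial mesoderm and neurons, measured 0.0956, 0.217, 0.0981 and 0.161 CPM in the controls and 6.53, 4.28, 6.08 and 7.68 CPM with ML-792 (5.34 ± 0.32). Grin2a, an NMDA receptor subunit, was at 0.354 CPM or less in every control and between 5.30 and 18.6 CPM with ML-792 (5.21 ± 0.38). Guca1b, which activates retinal guanylate cyclase, rose by 5.23 ± 0.39 and the long noncoding RNA gene Drr1 by 5.60 ± 0.66 on the log2 scale. Slco2b1, an organic anion transporter, showed the least even rise: 1.18, 1.22 and 2.07 CPM in 3 ML-792 libraries and 12.0 CPM in D10 replicate 2 (5.35 ± 0.70, adjusted p = 0.00041).

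Nkx6-3, a homeobox gene of gut epithelium, went from between 4.34 and 10.8 CPM to between 0.126 and 0.405 CPM (-4.89 ± 0.39). Pou2f3, the POU factor that defines tuft cells, went from between 6.76 and 15.1 CPM to between 0.203 and 0.674 CPM (-4.71 ± 0.33). The sides of both genes were far apart, and the rule that named them required that the sides not overlap.

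Tgm2, which cross-links proteins of the matrix, measured 26.0, 51.7, 50.7 and 71.5 CPM in the controls and 2.44, 2.72, 2.35 and 4.33 CPM with ML-792 (-4.04 ± 0.27). Bhlhe40, a repressor of the circadian and stress responses, went from between 27.7 and 65.8 CPM to between 2.40 and 8.39 CPM. On the log2 scale Xaf1, an interferon-inducible gene whose product binds XIAP, fell by 3.54 ± 0.27, the keratin Krt17 by 3.70 ± 0.36 and the riboflavin transporter Slc52a3 by 3.16 ± 0.25. In each of these genes the ML-792 libraries lay below all controls, which the rule that named them required.

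**Figure D2:**
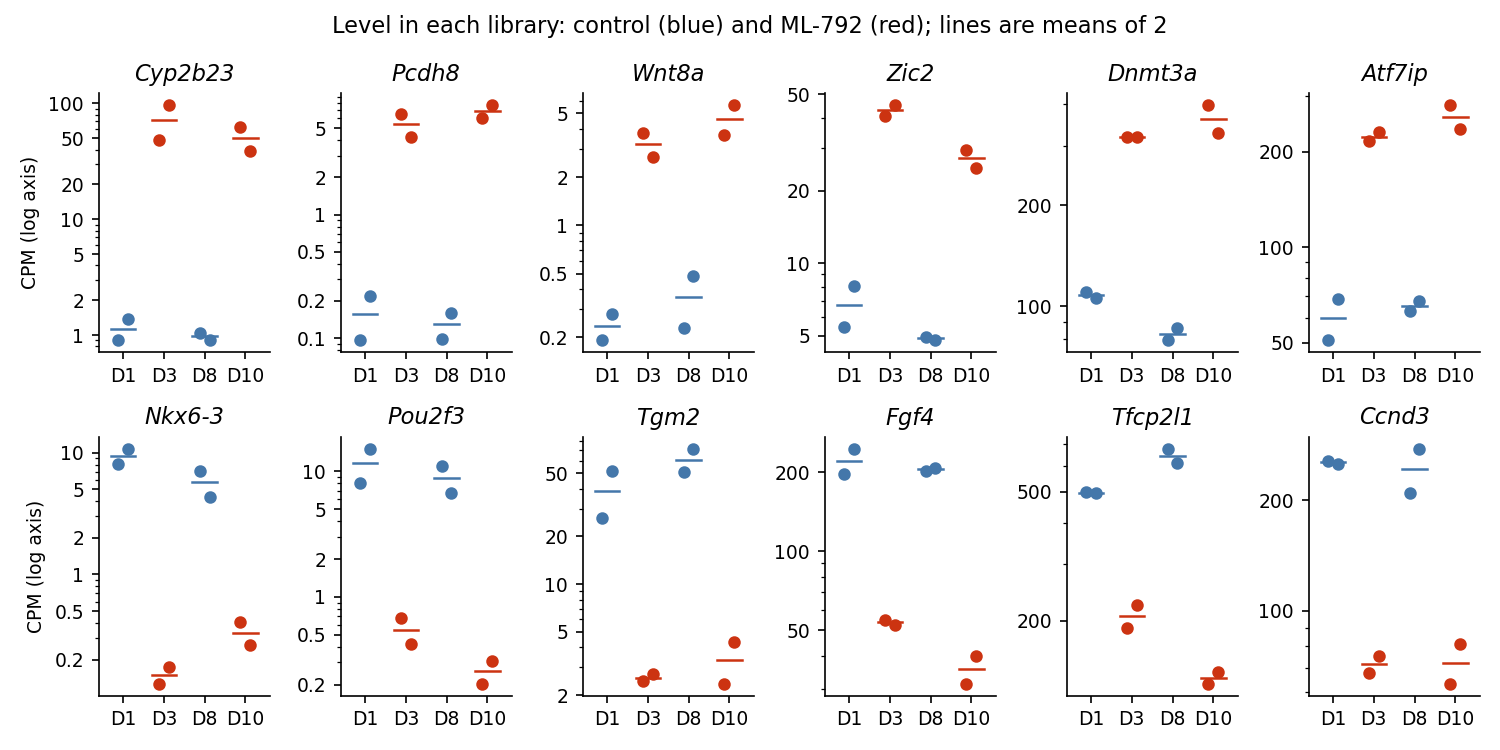
CPM (log y axis) of 12 genes in each of the 2 libraries of D1, D3, D8 and D10, with control libraries in blue, ML-792 libraries in red and a line at the mean of each day. In every panel the 4 ML-792 libraries lie on one side of the 4 controls, which the rule that named some of these genes required.

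The most abundant called genes changed little. Mkrn1, an RNA-binding ubiquitin ligase gene, measured 770, 733, 742 and 782 CPM in the controls and 1271, 1220, 1467 and 1359 CPM with ML-792 (0.81 ± 0.08, adjusted p = 0.00012). Psme4, a proteasome activator, rose by 0.49 ± 0.10. Hsp90ab1, a cytosolic chaperone, went from between 5494 and 6636 CPM to between 4367 and 5029 CPM (-0.32 ± 0.10, adjusted p = 0.030). Its call did not hold when D1 replicate 2, D3 replicate 2 or either D10 library was left out, or D1 replicate 2 and D8 replicate 2 together (adjusted p up to 0.0932).

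The E1 subunits Uba2 and Sae1 had log2 fold changes of -0.03 ± 0.09 and 0.00 ± 0.10, and the modifier genes Sumo2 and Sumo3 0.00 ± 0.15 and 0.13 ± 0.11, with none of these called. Of 29 tested SUMO pathway genes 3 rose (10.3%) and 2 fell (6.9%), against 17.0% and 15.2% over all genes tested. With the replicate block 5 rose and 4 fell, with GC and length offsets 6 rose, and 1 fell without D1 replicate 2, D3 replicate 1, D3 replicate 2, D8 replicate 2 or D10 replicate 1. The SUMO proteases split: Senp7 rose by 1.32 ± 0.22, from 2.96, 4.04, 3.30 and 3.92 CPM to 7.24, 5.99, 13.8 and 10.0 CPM, and Senp3 fell by 0.51 ± 0.10 on the log2 scale. The drug acts on enzyme activity, so transcript levels do not check whether the enzyme was inhibited.

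Genes of the 2-cell-like state, a rare and transient state of ES cultures that resembles the 2-cell embryo, were mostly higher. Of 34 tested members 31 rose (91.2%, the largest share of any list) and 1 fell (2.94%). Over all genes tested 17.0% rose and 15.2% fell. The median log2 fold change of the members was 3.53. Zscan4d measured 44.9 and 19.5 CPM at D1, 2.71 and 4.63 CPM at D8, 1453 and 405 CPM at D3 and 308 and 274 CPM at D10 (5.53 ± 0.52, adjusted p = 8.2e-05). Duxf3, a Dux copy that encodes the activator of these genes, went from between 0.0965 and 0.466 CPM to between 2.23 and 7.41 CPM (4.18 ± 0.38). Tcstv1 rose by 4.18 ± 0.56 and Zfp352 by 2.96 ± 0.45. Pramel5, Gm4340, AF067063, Tcstv1 and Duxf3 had control means of 0.0558, 0.0906, 0.142, 0.163 and 0.237 CPM. Genes that low could pass the filter on low counts through the ML-792 libraries alone, so for such members the rise is a description. Zscan4a and Nelfa, with control means of 15.8 and 74.0 CPM, rose as well, and Eif1a (297 CPM) was not called. Calcoco2, an autophagy receptor gene and the 1 member that fell, did so with overlapping sides (-1.17 ± 0.31), a call lost without D3 replicate 1 or D3 replicate 2. Zscan4d was lower in the D8 than in the D1 controls. D3 replicate 1 was the highest library for 31 of the 34 members. In bulk RNA, more cells of this state and more RNA per such cell cannot be told apart, and the same limit holds for every list.

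Naive pluripotency genes, which mark the ground state of the early epiblast, were mostly lower. Of 24 members 18 fell and 3 rose (1 without D1 replicate 1, D3 replicate 2 or D10 replicate 2), with a median of -0.86. Tfcp2l1, a naive-state factor downstream of LIF, measured 498, 494, 677 and 613 CPM in the controls and 190, 223, 128 and 139 CPM with ML-792 (-1.77 ± 0.19, adjusted p = 0.00015). Fgf4, the growth factor through which ES cells drive their own exit from pluripotency, went from between 198 and 246 CPM to between 31.3 and 55.1 CPM (-2.29 ± 0.14). Prdm14, a repressor of FGF signalling and DNA methylation, fell by 1.79 ± 0.23 on the log2 scale, Dppa5a by 1.68 ± 0.17, Klf2 by 1.29 ± 0.24 and Esrrb by 0.85 ± 0.16. In 17 members every ML-792 library lay below every control, as was so in 14.9% of all genes tested.

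The general pluripotency list did not follow. Of its 18 members 4 fell (22.2%) and 2 rose (11.1%), with a median of 0.05. With GC and length offsets 5 rose. Pou5f1 measured 1080, 1370, 1199 and 1321 CPM in the controls and 823, 959, 796 and 758 CPM with ML-792 (-0.58 ± 0.11, adjusted p = 0.0029). Nanog, which is in the naive list and not in this one, went from between 517 and 788 CPM to between 194 and 485 CPM (-0.86 ± 0.16). Sox2, of the general list, had a change of 0.05 ± 0.11 and overlapping sides. Dppa2, an activator of Dux, rose by 0.99 ± 0.17.

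LIF signals through Lifr and Il6st to Stat3, whose targets include Socs3, Klf4 and Tfcp2l1. Of 16 genes of that pathway 9 fell (56.2%) and 1 rose (6.25%), with a median of -0.41. Socs3, the feedback inhibitor, measured 189, 188, 234 and 246 CPM in the controls and 133, 102, 136 and 150 CPM with ML-792 (-0.72 ± 0.10, adjusted p = 0.00059). Klf4 fell by 1.05 ± 0.15, Pim3 by 0.95 ± 0.11 and the receptor gene Lifr by 0.68 ± 0.17 on the log2 scale. The kinase gene Jak1 (-0.36 ± 0.14) and the receptor subunit Il6st (-0.16 ± 0.10) were not called. Lif itself rose by 0.69 ± 0.18, a call lost without D3 replicate 2. Klf4, Tfcp2l1, Gbx2, Socs3 and Stat3 are also members of the naive list.

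Formative and primed epiblast genes, which come on as cells leave the naive state, were mostly higher. Of 19 members 11 rose (57.9%) and 1 fell (5.26%), with a median of 0.69. Dnmt3a, a de novo DNA methyltransferase (chromosome 12, 3806007 to 3914443), measured 110, 106, 79.3 and 86.3 CPM in the controls and 319, 318, 395 and 326 CPM with ML-792 (1.84 ± 0.13, adjusted p = 2.5e-05). Wnt8a, a Wnt ligand, went from 0.483 CPM or less to between 2.68 and 5.61 CPM (3.70 ± 0.31). The zinc finger gene Zic2 rose by 2.57 ± 0.15, Sox11 by 1.47 ± 0.16 and Sox4 by 1.39 ± 0.15. Otx2 (-0.42 ± 0.36), Dnmt3b (0.23 ± 0.11) and Foxd3 (-0.24 ± 0.20), which are in the same list, were not called. Etv4, a target of ERK, fell by 0.55 ± 0.10 on the log2 scale, and that call was lost with GC and length offsets.

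**Figure D3:**
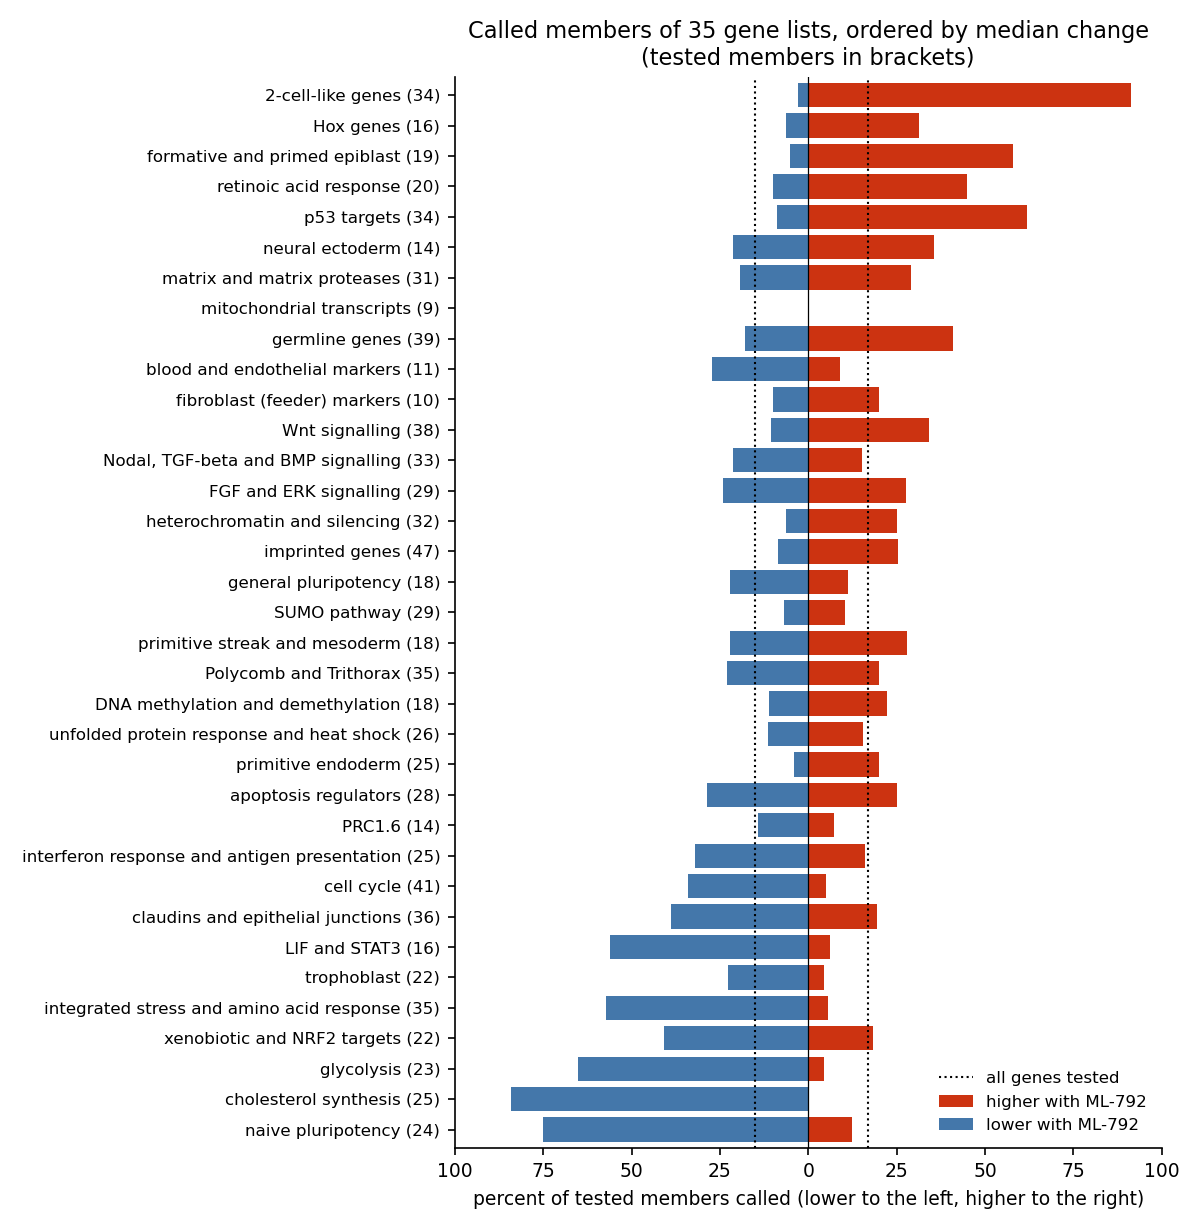
Percent of the tested members of 35 gene lists called higher with ML-792 (red, to the right) and lower (blue, to the left), ordered by the median log2 fold change. The dotted lines mark all genes tested, at 17.0% higher and 15.2% lower. The 2-cell-like list has the largest share of rises (91.2%) and cholesterol synthesis the largest share of falls (84.0%).

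Cholesterol synthesis genes, which act under the sterol-sensing factor Srebf2 and its partner proteins, were lower across the pathway. Of 25 members 21 fell and 0 rose, with a median of -0.77, and 2914 of all genes tested (15.2%) fell. The median member stood at 80.7%, 94.3%, 97.9% and 132% of its own control mean in the control libraries (D1, then D8). It stood at 60.0% and 52.6% at D3 and 53.8% and 67.4% at D10. The highest control value was that of D8 replicate 2, and the remaining controls were still above every ML-792 library.

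The falls ran from the first steps to the last. Hmgcs1, which makes the HMG-CoA that enters the pathway, measured 295, 374, 394 and 401 CPM in the controls and 234, 226, 231 and 240 CPM with ML-792 (-0.65 ± 0.10, adjusted p = 0.00095). Further down, on the log2 scale, Fdps fell by 1.46 ± 0.21, Fdft1 by 0.98 ± 0.16, Lss by 0.98 ± 0.13 and Msmo1 by 1.05 ± 0.11.

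The regulators were lower as well. Insig1, which holds SREBP in the endoplasmic reticulum, fell by 1.10 ± 0.16, Srebf1 by 0.79 ± 0.13 and Srebf2 by 0.59 ± 0.14 on the log2 scale. Members that were not called included Mvk (-0.43 ± 0.18), Idi1 (-0.35 ± 0.16) and Sqle (-0.22 ± 0.13). With GC and length offsets 22 members fell.

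The letters of promoters were searched for a sterol regulatory element (TCACNCCAC) and for CCAAT, the site of NF-Y, on both strands. Both motifs were chosen after the values were seen. Windows ran from 250 bases before to 50 after the first start listed in RefSeq (GRCm38.p6), and 17 members had one. CCAAT was in 16 of the 17 (94.1%) and in 38.9% of the 11408 windows of tested coding genes. Of those 16 genes 14 fell, and the 1 member without a match, Dhcr7, fell as well. With 1 such member, calls with and without a match cannot be compared. CCAAT was also in 78.3% of the windows of the unfolded protein and heat shock list and in 68.8% of those of the 2-cell-like list, which did not fall as groups. TCACNCCAC was in 1 of the 17 windows and in 1.10% of all windows. That window is of Hmgcs1, shown because its gene opens the pathway; the stretch lies at chr13:119690178-119690258 on the plus strand, with the match in capitals.
Hmgcs1: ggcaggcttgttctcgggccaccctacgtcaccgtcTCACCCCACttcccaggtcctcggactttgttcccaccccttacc

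Glycolysis genes, which turn glucose into pyruvate and lactate, were lower at many steps. Of 23 members 15 fell (65.2%) and 1 rose (4.35%), with a median of -0.57. The median member stood between 78.3% and 139% of its control mean in the controls and between 59.0% and 75.4% with ML-792. Hk1, the first enzyme, measured 59.9, 70.0, 82.1 and 134 CPM in the controls and 24.2, 31.2, 23.3 and 31.9 CPM with ML-792 (-1.60 ± 0.21, adjusted p = 0.00045). Slc2a3, the neuronal-type glucose transporter, fell by 0.95 ± 0.17, Pfkp by 0.86 ± 0.09, Pgk1 by 1.06 ± 0.19 and Ldha, which makes lactate, by 0.97 ± 0.18 on the log2 scale. Aldoa, the aldolase of the pathway, changed by -1.14 ± 0.22. Pdk1, which turns off entry of pyruvate into mitochondria, rose by 0.51 ± 0.09.

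D8 replicate 2 was the highest library for Hk1, Slc2a3, Aldoa, Pgk1 and Ldha, and it was also the library with the largest rise of levels with GC content (rho 0.594). These genes stayed called without it and with GC and length offsets. Without D1 replicate 2 only 9 members fell. Slc2a1, the other main glucose transporter, had a change of 0.38 ± 0.23 with overlapping sides.

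**Figure D4:**
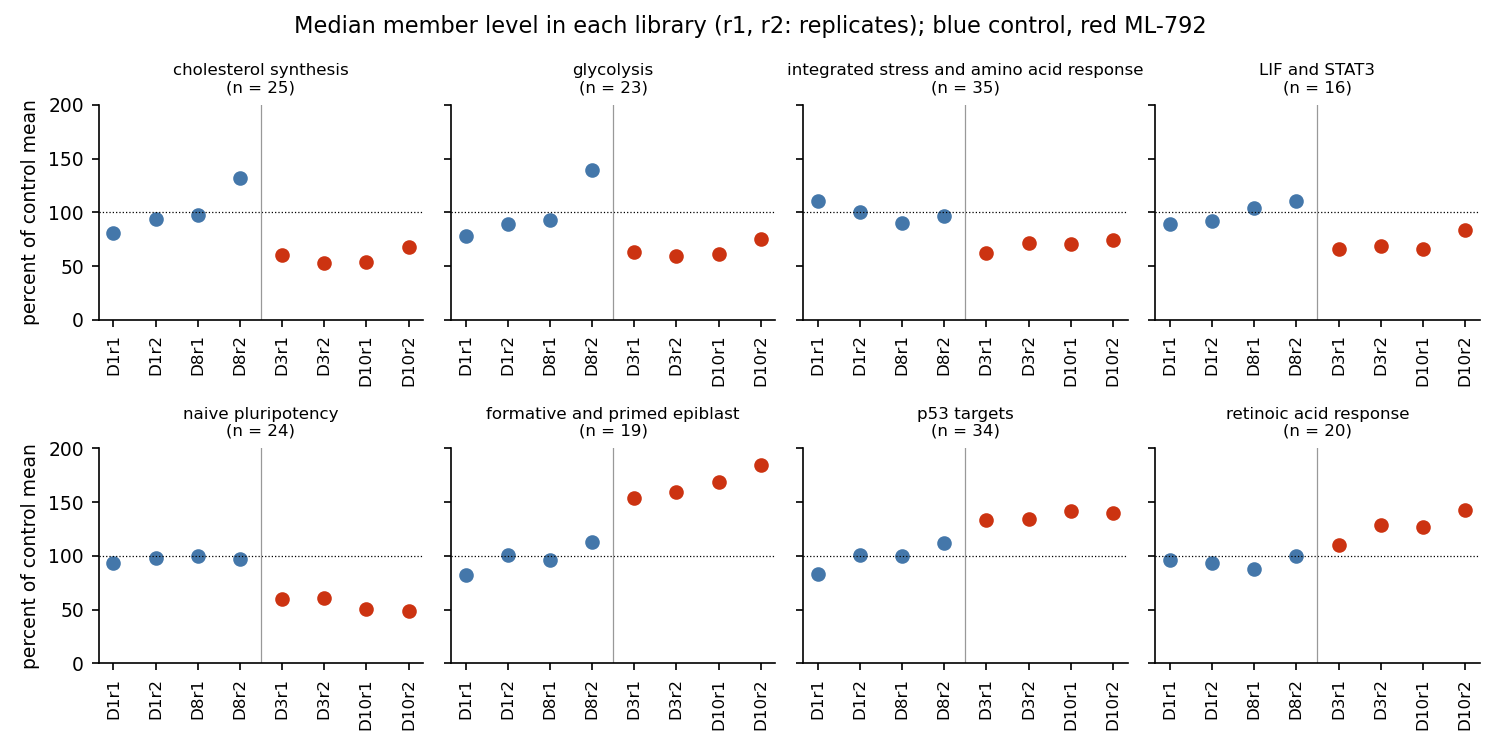
Median level of the tested members of 8 lists in each library, as a percent of each member's control mean (y axis), with control libraries in blue and ML-792 libraries in red. The sides do not overlap in any of the 8 panels. D8 replicate 2 is the highest control for cholesterol synthesis (132%) and glycolysis (139%).

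Genes of the integrated stress and amino acid response, which Atf4 switches on when amino acids run short, were lower. Of 35 members 20 fell (57.1%) and 2 rose (5.71%), with a median of -0.52. In 18 members every ML-792 library lay below every control. That separation was found in 14.9% of all genes tested. Pck2, a mitochondrial kinase gene of phosphoenolpyruvate synthesis, measured 62.4, 51.8, 52.4 and 58.4 CPM in the controls and 11.6, 18.0, 16.5 and 18.6 CPM with ML-792 (-1.80 ± 0.15, adjusted p = 5.4e-05). Nupr1, a stress-induced chromatin protein, went from between 6.98 and 15.9 CPM to between 1.64 and 3.09 CPM (-2.04 ± 0.28). The serine synthesis genes Psat1 and Phgdh fell by 0.89 ± 0.11 and 0.98 ± 0.16 on the log2 scale, and the tRNA synthetase genes Nars and Aars by 0.79 ± 0.11 and 0.59 ± 0.08. Atf4 (-0.24 ± 0.17) and Ddit3 (-0.33 ± 0.30) were not called. Sesn2, which rose by 0.76 ± 0.15, is also a p53 target.

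The C/EBP-ATF composite element (TGATGNAA, searched on both strands and chosen after the values were seen) was in 9 of the 27 promoter windows of this list (33.3%) and in 2.25% of the 11408 windows. Of the 9 genes 6 fell and 0 rose, and of the 18 without a match 8 fell and 2 rose. A match is a description of the letters, not of binding. The stretches of 4 genes are shown in the gene's own direction, with the match in capitals, since they carry the element and differ in the size of their change. That of Pck2 is chr14:55540127-55540206 (plus), that of Nupr1 chr7:126625537-126625616 (minus), that of Asns chr6:7693210-7693268 (minus) and that of Chac1 chr2:119351013-119351092 (plus).
Pck2: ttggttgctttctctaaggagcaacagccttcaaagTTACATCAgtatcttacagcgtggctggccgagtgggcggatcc
Nupr1: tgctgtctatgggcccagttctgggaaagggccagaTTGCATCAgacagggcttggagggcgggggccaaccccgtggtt
Asns: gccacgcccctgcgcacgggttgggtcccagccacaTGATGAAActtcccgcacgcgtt
Chac1: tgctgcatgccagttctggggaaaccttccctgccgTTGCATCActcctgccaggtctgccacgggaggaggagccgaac
Asns, the asparagine synthetase gene, measured 552, 644, 593 and 679 CPM in the controls and 381, 440, 502 and 537 CPM with ML-792 (-0.42 ± 0.10, adjusted p = 0.012). Chac1, which degrades glutathione, had 19.8 CPM in D1 replicate 1 and between 2.90 and 6.12 CPM in the other 7 libraries, and was not called (-1.03 ± 0.41, adjusted p = 0.086).

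Targets of p53, which responds to DNA damage and other stress, were mostly higher. Of 34 members 21 rose (61.8%) and 3 fell (8.82%), with a median of 0.43. Mdm2, the ligase that degrades p53, measured 133, 176, 177 and 181 CPM in the controls and 320, 328, 409 and 378 CPM with ML-792 (1.10 ± 0.10, adjusted p = 7.5e-05). Pmaip1, the pro-apoptotic BH3 protein Noxa, went from between 48.6 and 81.4 CPM to between 184 and 260 CPM (1.93 ± 0.14). Plk2 rose by 1.68 ± 0.22, Ccng1 by 0.93 ± 0.09 and the death receptor gene Fas by 1.57 ± 0.23, from 1.13 CPM or less to between 1.92 and 2.66 CPM. The cell cycle inhibitor Cdkn1a rose by 0.84 ± 0.23 with overlapping sides, a call lost without D1 replicate 1, D1 replicate 2 or D3 replicate 2. Gdf15 fell by 1.56 ± 0.18 on the log2 scale, and Bax and Bbc3 were not called (0.13 ± 0.09 and -0.25 ± 0.19).

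Of 28 apoptosis regulators 7 rose and 8 fell, with a median of -0.10. Casp8, which starts death-receptor apoptosis, rose by 1.35 ± 0.14, and Hrk, a BH3-only gene, fell by 1.58 ± 0.32 on the log2 scale. These counts depended on single libraries: 4 rose without D1 replicate 2, D3 replicate 1 or D10 replicate 1, and leaving out D1 replicate 2 left 3 falls, D3 replicate 2 left 5 and D10 replicate 1 left 4. Without both doubted controls, D1 replicate 2 and D8 replicate 2, 4 rose and 2 fell.

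Cell cycle genes were lower in part. Of 41 members 14 fell (34.1%) and 2 rose (4.88%), with a median of -0.21, and 9 fell without D3 replicate 2. Ccnd3, the D-type cyclin, measured 256, 252, 209 and 276 CPM in the controls and 67.7, 75.2, 63.3 and 81.2 CPM with ML-792 (-1.79 ± 0.12, adjusted p = 2.2e-05). The other D cyclins, Ccnd1 and Ccnd2, were not called (0.18 ± 0.09 and 0.67 ± 0.27). Ccne1 fell by 0.80 ± 0.11 and the licensing factor Cdt1 by 0.73 ± 0.11 on the log2 scale. Rb1, the retinoblastoma gene that restrains entry into S phase, rose by 1.12 ± 0.12. The proliferation marker Mki67 had a change of 0.00 ± 0.14.

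Of 20 retinoic acid genes 9 rose (45.0%), 2 fell (10.0%) and 9 were not called (median 0.48), and 6 rose without D10 replicate 2. Aldh1a3, an enzyme that makes retinoic acid, measured 0.478, 0.404, 0.589 and 0.451 CPM in the controls and 2.40, 3.69, 6.65 and 5.87 CPM with ML-792 (3.22 ± 0.27, adjusted p = 5.1e-05). Its relative Aldh1a2 rose by 1.16 ± 0.24. Of the receptors, Rxrg went from between 0.772 and 1.67 CPM to between 6.61 and 9.81 CPM (2.80 ± 0.21) and Rarg rose by 1.18 ± 0.13, while Rara (-0.28 ± 0.11) and Rxrb (-0.19 ± 0.09) were not called. The binding proteins split, with Crabp2 higher by 1.04 ± 0.20 and Crabp1 lower by 1.59 ± 0.25. The direct targets Cyp26a1 (-1.09 ± 0.53), Rarb and Stra8 gave no uniform picture: Cyp26a1 and Stra8 (0.21 ± 0.51) were not called, and Rarb rose by 1.25 ± 0.40 with overlapping sides. The call of Rarb was lost in 7 alternatives, among them each of 5 single libraries left out (all but D1 replicate 1, D3 replicate 2 and D10 replicate 1).

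Claudins and junction genes moved in both directions. Of 36 members 14 fell (38.9%) and 7 rose (19.4%), with a median of -0.33. The falls numbered 9 without D10 replicate 1 and 8 without both D1 replicate 2 and D8 replicate 2. Cldn4, a barrier claudin of tight epithelia, measured 23.1, 38.6, 48.2 and 90.0 CPM in the controls and 3.75, 5.19, 5.07 and 14.3 CPM with ML-792 (-2.80 ± 0.33, adjusted p = 0.00026). Cdh1, the E-cadherin gene, went from between 285 and 329 CPM to between 165 and 205 CPM (-0.74 ± 0.10), and Cdh2, N-cadherin, from between 1.34 and 2.00 CPM to between 2.15 and 6.39 CPM (1.10 ± 0.25). The desmosome genes Dsp and Dsg2 fell by 1.08 ± 0.20 and 1.01 ± 0.12 on the log2 scale and plakoglobin, Jup, by 1.21 ± 0.19. The tight junction scaffold Tjp3 fell by 2.24 ± 0.22, whereas Tjp1 (0.00 ± 0.09) was not called.

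Signalling lists held large changes in both directions. Over all genes tested 17.0% rose and 15.2% fell. The shares were 34.2% and 10.5% in the Wnt list and 27.6% and 24.1% in the FGF and ERK list. In the Nodal, TGF-beta and BMP list they were 15.2% and 21.2%. Of 38 Wnt genes 13 rose and 4 fell (median 0.20), 2 fell without D1 replicate 2, and 8 rose without D1 replicate 1, D1 replicate 2, D3 replicate 1 or D10 replicate 2. Sfrp1, a secreted Wnt antagonist, went from between 83.0 and 114 CPM to between 14.8 and 24.2 CPM (-2.31 ± 0.16, adjusted p = 2.3e-05). The agonist Rspo3 rose by 3.70 ± 0.53 from 0.0981 CPM or less, and the receptor Fzd7 by 0.70 ± 0.14. In the FGF and ERK list 8 of 29 rose and 7 fell (3 without D1 replicate 2 or D3 replicate 2). There Etv1 rose by 2.15 ± 0.21 and Fosl1, an AP-1 subunit, by 2.72 ± 0.33. Among Nodal, TGF-beta and BMP genes 5 of 33 rose (3 without D3 replicate 1 or D10 replicate 2, 8 without D8 replicate 2 or with the replicate block) and 7 fell. Inhbb, an activin subunit, went from between 85.8 and 149 CPM to between 17.5 and 48.9 CPM (-2.07 ± 0.19).

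Of 32 heterochromatin and silencing genes 8 rose and 2 fell (median 0.15). With GC and length offsets 5 fell, and 1 fell when any 1 of 4 libraries was left out (the second replicates of D1, D3 and D10 and the first of D10). Atf7ip, the partner that protects the histone methyltransferase Setdb1 (chromosome 6, 136506167 to 136610862), measured 50.8, 68.8, 63.0 and 67.6 CPM in the controls and 216, 231, 280 and 236 CPM with ML-792 (1.94 ± 0.12, adjusted p = 1.4e-05). Setdb1 itself had a change of 0.05 ± 0.08 and the co-repressor Trim28 -0.06 ± 0.10. Zfp809, a KRAB zinc finger gene that silences proviruses, went from between 20.9 and 42.9 CPM to between 85.5 and 121 CPM (1.65 ± 0.17). The methyltransferase genes Ehmt1 and Ehmt2, whose products work as a dimer, moved apart (0.35 ± 0.08 and -0.53 ± 0.11). Of 35 Polycomb and Trithorax genes 7 rose (4 in 6 of the 8 leave-one-out fits) and 8 fell. These were 20.0% and 22.9%, against 17.0% and 15.2% over all genes tested. Of 14 genes of the germline-silencing complex PRC1.6, 1 rose (7.14%) and 2 fell (14.3%). The rises numbered 3 with the replicate block and 0 in 5 of the 8 leave-one-out fits. The falls numbered 5 with GC and length offsets and 1 in 7 of the 8 leave-one-out fits. Of 18 genes of DNA methylation and demethylation 4 rose (22.2%), among them Dnmt3a, and 2 fell (11.1%). The falls numbered 5 with the replicate block, with DESeq2 or without D8 replicate 2, 4 with GC and length offsets, and 1 without D1 replicate 2, D3 replicate 2 or D10 replicate 2.

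Germline genes, many of which are silenced in ES cells by DNA methylation and PRC1.6, moved both ways. Of 39 members 16 rose (41.0%) and 7 fell (17.9%), with a median of 0.27. Dazl, an RNA-binding protein of germ cells, measured 49.0, 69.9, 27.2 and 19.8 CPM in the controls and 99.2, 139, 70.4 and 76.3 CPM with ML-792 (1.32 ± 0.19, adjusted p = 0.00067). Stk31 rose by 1.73 ± 0.29, the synaptonemal complex gene Sycp1 by 1.72 ± 0.18, Brdt by 1.64 ± 0.18 and Mael by 1.46 ± 0.22. The piRNA pathway genes Piwil2 and Ddx4 fell by 0.66 ± 0.14 and 0.67 ± 0.17 on the log2 scale, and the oocyte gene Ooep by 1.74 ± 0.12. Of the 34 windows of this list, 14 (41.2%) held the E-box CACGTG, against 9.94% of all windows, and 11 (32.4%) held the E2F site TTCCCGC on either strand, against 8.42%. The 2-cell-like list had neither motif in its 16 windows.

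Of 47 imprinted genes 12 rose (25.5%, against 17.0% over all genes tested) and 4 fell (8.51%, against 15.2%). The median was 0.12, and 8 fell with the replicate block. Peg10 rose by 1.38 ± 0.18, the Prader-Willi region gene Magel2 by 3.09 ± 0.36 and the maternal noncoding RNA Mirg by 1.11 ± 0.16, while Meg3, from the same cluster, was not called (0.34 ± 0.23). Phlda2 measured 34.7, 35.8, 32.6 and 35.6 CPM in the controls and 12.0, 8.53, 9.61 and 12.6 CPM with ML-792 (-1.70 ± 0.14, adjusted p = 5.3e-05).

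Interferon and antigen presentation genes moved both ways, with 8 of 25 lower and 4 higher (median -0.18). Without D1 replicate 2 and D8 replicate 2, 5 were lower. Ifitm1, which blocks entry of viruses, went from between 43.2 and 96.4 CPM to between 7.21 and 13.6 CPM (-2.84 ± 0.25). Irf9, a subunit of the interferon-activated factor ISGF3, fell by 0.75 ± 0.14 on the log2 scale. The rises were of Nlrc5, an activator of MHC class I genes (1.79 ± 0.26), the exonuclease gene Isg20 (1.47 ± 0.39, a call lost without D10 replicate 2), the peptide transporter gene Tap1 (1.42 ± 0.30, with overlapping sides) and the tetherin gene Bst2 (0.77 ± 0.14). Among xenobiotic genes 9 of 22 fell (40.9%) and 4 rose (18.2%). The rises numbered 2 without any 1 of D1 replicate 1, D1 replicate 2, D3 replicate 2, D8 replicate 1 and D10 replicate 1. Nqo1 was lower by 1.03 ± 0.16 and the glutathione transferase Gsta4 by 0.81 ± 0.12, beside the rise of Cyp2b23. Of 31 genes of the matrix and its proteases, Mmp12 among them, 9 rose (29.0%) and 6 fell (19.4%). Without D1 replicate 2, 3 of the 31 fell. Of 26 genes of the unfolded protein and heat shock responses 4 rose (2 without D3 replicate 1) and 3 fell (1 without D3 replicate 2, 5 with GC and length offsets). These were 15.4% and 11.5%, against 17.0% and 15.2% over all genes tested. Of 9 mitochondrial transcripts 0 were called by edgeR, 6 were higher with the replicate block, 2 with DESeq2 and 3 without D10 replicate 2.

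Of 16 tested Hox genes, which pattern the body axis, 5 rose (31.2%, against 17.0% over all genes) and 1 fell (median 0.78). Their median level was 88.3% to 114% of the control mean in the control libraries and 146% to 202% with ML-792. Hoxb2, Hoxb13 and Hoxa5 had control means of 0.0633, 0.192 and 0.264 CPM. A gene that low could pass the filter on low counts through the ML-792 libraries alone, so the share is not read as a tilt of the list. The rises numbered 3 without D10 replicate 2 and 2 without both D1 replicate 2 and D8 replicate 2, and the 1 fall, of Hoxc4 (-1.62 ± 0.45), was lost without D1 replicate 2 or D3 replicate 2. Of 14 neural genes 5 rose (35.7%) and 3 fell (21.4%). Of 18 genes of primitive streak and mesoderm 5 rose (27.8%) and 4 fell (22.2%). In the latter list 3 rose without D1 replicate 1, D1 replicate 2, D3 replicate 1 or D10 replicate 2. The same limit of the filter holds for En1, Neurog3 and Zic1 among the neural rises and for Cdx4 and Snai2 among those of mesoderm. Hoxa5 measured 0.383, 0.217, 0.262 and 0.193 CPM in the controls and 0.758, 0.697, 1.42 and 1.45 CPM with ML-792 (2.02 ± 0.36). The midbrain gene En2 rose by 2.00 ± 0.23, from 6.76 CPM or less to between 14.1 and 20.5 CPM. Of 25 primitive endoderm genes 5 rose (20.0%) and 1 fell (4.0%), against 17.0% and 15.2% over all genes tested. The rises numbered 3 without D1 replicate 2. The call of the fall was lost when the second replicate of D1, the first of D3 or either D10 library was left out. The median level of the 25 genes moved with the round. In the first round it was 29.0% and 38.8% of the control mean without the drug and 40.5% and 52.1% with it. In the second it was 118% and 196% without and 103% and 153% with it. Of 22 trophoblast genes 1 rose (4.55%, and 0 genes in 6 of the 8 leave-one-out fits) and 5 fell (22.7%). There Tead4, the factor that specifies trophectoderm, went from between 25.6 and 56.8 CPM to between 7.20 and 10.6 CPM (-2.17 ± 0.15).

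The summed level of 17 fibroblast genes ran from 140 to 231 CPM in the controls and from 198 to 249 CPM with ML-792, most of it Vim, which ES cells also express. The defining genes Dcn, Lum and Postn had 8, 5 and 4 reads over all 8 libraries. D8 replicate 2 stood apart in this list too: Acta2, smooth muscle actin, had 11.3 CPM there and at most 2.26 CPM elsewhere, Tagln 21.3 CPM and at most 10.7 CPM, and the median of the 10 tested genes was 162% of the control mean. Of those 10 genes Twist2 (2 reads over the controls and 35 with ML-792, a ratio per library size of 16.8 with an exact 95% interval of 4.33 to 145) and Fbn1 (0.81 ± 0.20, a call lost without D3 replicate 1) rose and Pdgfrb fell (-1.40 ± 0.26), and without D8 replicate 2, 5 rose. The summed level of 15 blood and endothelial genes ran from 30.8 to 57.9 CPM and from 51.2 to 60.9 CPM, and Ptprc, the pan-leukocyte gene, had 14 reads in all. Of the 11 tested, Cdh5 rose with overlapping sides, from between 0.0478 and 1.42 CPM to between 0.800 and 3.07 CPM, and Tie1 (-1.54 ± 0.42), Tal1 (-1.03 ± 0.30) and Spi1 (-1.05 ± 0.31) fell. The call of Cdh5 was lost in 5 of the 8 leave-one-out fits, of Tie1 in 2, of Tal1 in 3 and of Spi1 in 5, and without D8 replicate 2, 5 of the 11 rose. Mmp12 and Fcrl5 are best known from blood cells, and the leukocyte factor Spi1 ran from 0.654 to 1.24 CPM in the controls and from 0.243 to 0.592 CPM with ML-792. The part of other cells in these results was not tested.

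The balance of rises and falls differed with level. Of 2371 genes with a mean over 100 CPM across the 8 libraries 207 rose and 413 fell, and of 7071 genes at 10 to 100 CPM 934 rose and 1360 fell. Between 1 and 10 CPM, 1048 of 5126 rose and 820 fell. No share is read under 1 CPM, where a gene could pass the filter on low counts through the ML-792 libraries alone. Genes called higher took 5.51% to 6.39% of reads in the controls and 10.0% to 11.1% with ML-792, and genes called lower 18.8% to 21.7% and 13.6% to 14.9%.

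More genes gave reads after ML-792. Of the whole table, 25579 to 26571 genes had at least 1 read in the control libraries and 28012 to 29331 in the ML-792 libraries, although depth on both sides overlapped. Tested genes at 1 CPM or more numbered 14037 to 14342 in controls and 14552 to 14748 with ML-792. Of tested genes, 28 had 0 reads in all 4 controls, and 0 had 0 reads in all 4 ML-792 libraries. These 28 genes passed the filter on low counts only through their ML-792 libraries, so their values are a description. The 28 included pheromone receptor and olfactory receptor genes, the milk protein gene Csn3 and the stromelysin gene Mmp3. Against a floor of 3 reads over the 4 controls, Vmn2r-ps159 was at least 28.5-fold higher, Vmn1r178 at least 24.1-fold, Csn3 at least 23.1-fold, Olfr810 at least 16.7-fold, Mmp3 at least 15.1-fold and Vmn2r18 at least 14.1-fold. Csn3 had 5 and 3 reads at D3 and 34 and 30 reads at D10, and Olfr810 had 1 and 3 reads and then 25 and 23 reads.

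Gene classes differed in their balance of rises and falls. Of 14693 coding genes 2494 rose and 2687 fell. Rises outnumbered falls among long intergenic noncoding RNAs (206 of 702 rose and 72 fell) and unprocessed pseudogenes (62 of 118 rose and 3 fell). Among 1358 processed pseudogenes 171 rose and 28 fell. Level was not taken into account in these counts. Of 426 tested genes under 0.1 CPM in the controls 410 rose and 0 fell. Such genes could pass the filter on low counts through the ML-792 libraries alone, so the balance of each class is a description. Pseudogenes share sequence with their parent genes, and how reads that match several places were counted is not given in the sources used here. Rises made up 52.8% of all calls. By chromosome, they made up 69.4% of the calls on chromosome 12 and 72.9% on X. On chromosomes 15, 8 and 17 they made up 36.7%, 37.9% and 38.7%. The 204 rises on chromosome 12 include a run of 33 neighbouring predicted genes, described below, so its share is not that of independent genes.

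Called genes often stood next to each other. There were 104 runs of 4 or more consecutive tested genes that all rose (550 genes) and 62 runs that all fell (285 genes). The longest was a run of 33 genes on chromosome 12 (87480108 to 88354686), predicted genes that include Gm8300, Gm2022 and Gm5662 of the 2-cell-like list, with a median log2 fold change of 3.91. A run of 13 on chromosome 7 (10794242 to 11983912) held the Zscan4 genes and a run of 15 on chromosome 3 (93628640 to 94347352) Tdpoz4 and Tdpoz3. The longest run of falls held 8 histone genes, Hist1h4h to Hist1h3e, on chromosome 13 (23531050 to 23562369), with a median of -0.666. The calls of Hist1h4h and Hist1h3e were lost without D1 replicate 2. A run of 9 microRNA genes on chromosome 12 (109586314 to 109595388), among them Mir127, rose by a median of 1.55. Genes that overlap or are copies of each other share reads, so neighbours in a run are not independent.

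Promoters of the genes with the largest changes were poor in CpG in both directions. The median window held 20 CpG over all 11408 genes, 8 among genes that rose 4-fold or more and 7 among those that fell 4-fold or more. At most 5 CpG were found in 11.2% of all windows, in 43.4% of the former and in 42.3% of the latter. Genes with low control levels had fewer CpG whatever their call. Between 0.1 and 1 CPM, 32.0% of the genes that rose, 30.5% of those not called and 45.6% of those that fell had at most 5. Between 1 and 10 CPM the shares were 15.8%, 14.0% and 21.5%. At these levels the share was thus largest among the genes that fell. The windows of Cldn10 and Mmp12 held 4 and 0 CpG.

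The rounds were compared within the same libraries. Between ML-792 and control, 2496 genes (13.0%) were called in the first round alone and 3244 (16.9%) in the second alone. Of the 6169 pooled calls 1912 were called in both rounds, 527 in the first only, 1240 in the second only and 2490 (40.4%) in neither. The last group had a median absolute log2 fold change of 0.634, against 1.78 for genes called in both. Every pooled call had the same direction in both rounds, which the pooled test itself favours, since it is made from both. Whether a call in 1 round alone differed from the other round was asked with an interaction term. That test called 0 genes (0.0%) by edgeR's quasi-likelihood test, with 575 at an unadjusted p under 0.05, and DESeq2 called 3.

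Sizes in each round are given for a few named genes, with no call of a difference. Nkx6-3 had log2 fold changes of -5.91 in the first and -4.13 in the second round, Tfcp2l1 -1.26 and -2.27, Dppa2 0.58 and 1.39, and Cldn10 5.87 and 7.18. Atf7ip (1.90 and 1.98), Wnt8a (3.71 and 3.69) and Bhlhe40 (-3.03 and -2.98) had values within 0.1 of each other. The round term, which compares the second round with the first on both sides, called 97 genes (0.506%), 83 of them higher in the second round and 14 lower. Of these, 38 were also called for ML-792.

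**Figure D5:**
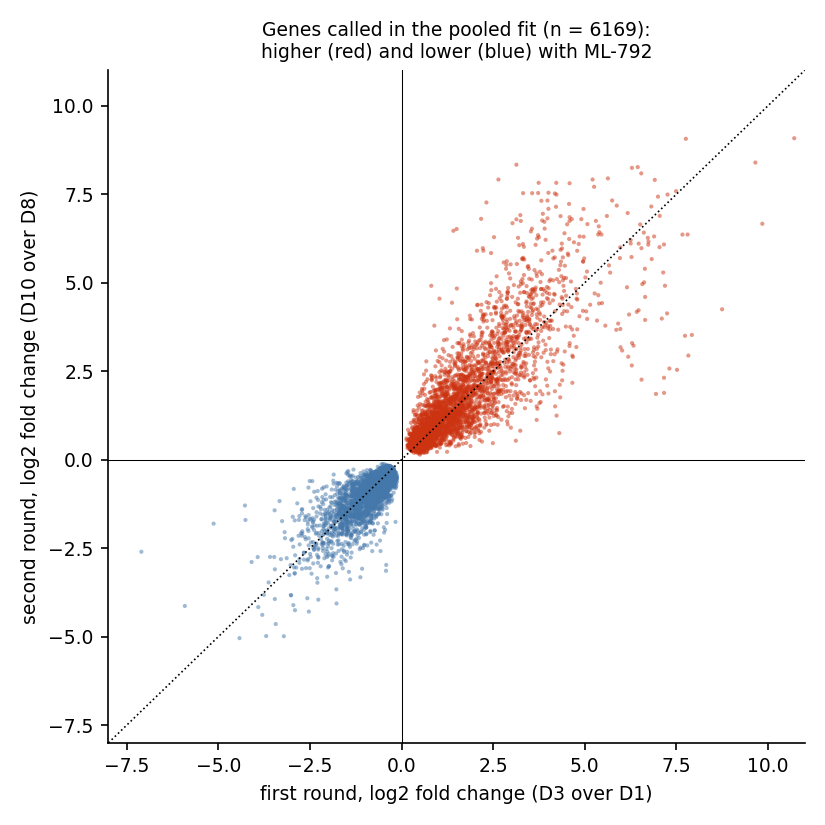
Log2 fold change in the second round (y axis) against the first round (x axis) for the 6169 genes called in the pooled fit, red where higher and blue where lower with ML-792. The dotted line marks equal change. The points lie in 2 quadrants because genes were chosen by a fit over both rounds.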

How the data were processed

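RNA was measured in 8 libraries, 4 a side. The authors deposited raw counts: for each Ensembl gene, a whole number of reads that had not been scaled. Per the submitters' processing notes, bcl2fastq 2.17.1.14, STAR 2.5.0a, featureCounts and build mm10 were used; for the featureCounts version, its strand and multi-mapping settings and the annotation, nothing was given in the sources used here. The labels call the molecule polyA RNA, while their extraction protocol is for stranded libraries of total RNA after removal of rRNA.

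Symbols, biotypes and coordinates came from GENCODE M21 by identifier (36901 of 36920 matched). Genes were kept by filterByExpr on the 4 day groups. Counts were scaled by TMM and tested in edgeR 4.0.16 (R 4.3.3) by the 2-sided quasi-likelihood test with round and treatment as terms (5 residual degrees of freedom, biological coefficient of variation 18.9%). Adjusted p-values are Benjamini-Hochberg values across all 19173 genes. Within-round and interaction values came from a fit of the 4 day groups, and values of the round term from the fit with round and treatment as terms. The SE is the log2 fold change over the square root of F. Values after ± are SEs. Fitted changes of genes at or near 0 in one side depend on the prior count. Reads carry no molecular identifiers, so floors and read-ratio intervals cover counting error only. On simulated counts (18682 genes, 200 of them changed) 47.4% of 2-fold and 92.6% of 4-fold changes were recovered, with 6.99% false calls. In the data 32.2% of genes were called, and recovery with that many changed genes was not simulated.

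Same-numbered replicates deviated together from their day means in all 6 pairs of groups (r from 0.101 to 0.498), so the replicate number was used as a block in an alternative. Other alternatives were RLE scaling, DESeq2 1.42.0, other filters, GC and length offsets, no round term, the mean of both rounds and each library left out; leaving out D1 replicate 2 and D8 replicate 2 together was added after seeing the data.

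The comparison, the 35 gene lists and the members were chosen with earlier results of these data known. Genes were named by a rule: the 12 largest rises and falls (mean of at least 1 CPM, no overlap between sides, same direction in both rounds, no predicted names, 1 a family), the 5 most abundant calls each way, up to 4 called members a list, fixed SUMO and pluripotency genes and 6 genes without control reads. A part of them is named, and further list members were named after their values were seen. Some named genes are not reported here.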

Additional observations from a re-analysis of the deposited data

Results flagged for a closer look

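In 18 of 328 sets of 4 libraries of one side (5.49%), the highest or lowest library of a named gene stood apart from the other 3 by most of the range. Chance gives about 1 in 20 such sets. Among the ML-792 libraries, D3 replicate 1 was the highest for Nat8f2 (38.5 CPM) and the lowest for Hoxb13 (0.505 CPM), Nupr1 (1.64 CPM) and Gpt2 (26.0 CPM). D10 replicate 1 was the lowest for Krt17 (0.486 CPM) and Slc52a3 (0.770 CPM) and the highest for Dnmt3a (395 CPM). D10 replicate 2 was the highest for Slc22a18 (2.12 CPM), Gadd45b (12.1 CPM) and Gstm2 (2.83 CPM).

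Among the controls, D8 replicate 2 was the highest for Pkm (3450 CPM), En2 (6.76 CPM), Tgfb2 (0.772 CPM) and Pim3 (223 CPM) and the lowest for Gbx2 (35.9 CPM). D1 replicate 2 was the lowest for Grin2a (0.0932 CPM) and the highest for Lgals3 (26.9 CPM), and D1 replicate 1 was the highest for Spi1 (1.24 CPM).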

How the results depend on the processing

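The total of 6169 calls was 6115 with RLE factors, 6474 with DESeq2, 7545 without a filter on low counts, 4767 with a stricter filter, 5505 without the round term and 7353 with GC and length offsets. With the replicate number as a block it was 7660, of which 6168 were among the 6169, and no named call was lost. With block and offsets together it was 8572, of which 4411 were lower. Leaving out 1 library gave 4475 to 6023, with the fewest without D1 replicate 2, and leaving out D1 replicate 2 and D8 replicate 2 together gave 4426. The interaction test called 3 genes with DESeq2 and 66 without a filter. Without a filter the median log2 fold change of all genes was 0.124. Of 161 called named genes, 128 kept the call under every alternative run and 33 lost it under at least 1. No named gene changed direction under any alternative run. Low counts limit changes below 1 CPM. In the simulation, where 200 genes were changed, 47.4% of 2-fold changes were recovered.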
